A study of Mus musculus with 7 samples.

Results

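Described here are 7414 distal regions of accessible chromatin that both Dll1+ and Dll1− mammary tumor cells held and that stood higher in the ranking of the Dll1+ cells. They were chosen by measured values. Peaks of both groups that overlapped or touched were merged, regions with peaks of both groups and a midpoint over 1000 bp from every protein-coding transcription start site (TSS) were kept, and each region was given its percentile, by its highest fold enrichment, among all 79153 shared regions of each group. A region was a member when its Dll1+ percentile exceeded its Dll1− percentile by 20 or more. Of 64913 shared distal regions, 7414 (11.4%) were members, out of 119215 regions in all. The opposite group, with a difference of −20 or less, held 6939 regions (10.7%) and serves as the main comparison, and 50560 other shared distal regions lay between them.

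The cells came from tumors of C57BL/6 mice with the MMTV-PyMT transgene, in which the mammary tumor virus promoter drives polyoma middle T in mammary epithelium, together with the Dll1-mCherry reporter, a transgene that both groups carried. After cells with CD45, CD31 or Ter119 had been sorted out, tumor cells with mCherry (Dll1+) and without it (Dll1−) were profiled by ATAC-seq, in which a transposase cuts and tags open DNA. The 7 samples came from 4 tumors, 3 of which gave both groups, and the peak lists analysed pool 3 Dll1+ samples and 4 Dll1− samples. With pooled lists no difference could be set against the spread between tumors, so no p-value is given, and the 95% intervals below cover counting error only. The ages of the mice were not given in the sources used here.

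Distal accessible regions include enhancers, stretches of DNA where transcription factors bind and act on promoters that can lie far away. Each factor family recognizes a short DNA word. AP-1 factors (Fos and Jun proteins) respond to stress and growth signals, whereas forkhead (FOX), SOX, RUNX, TEAD and NFI factors take part in lineage choice and growth control of mammary and other epithelia. Members differ from the opposite group in which of these words lie under their summits, which the choice of members did not use.

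The sequences below show what such summits look like. They are 101 bases around the Dll1+ summit, read from the plus strand of GRCm38, for members that were among those with the largest difference, the highest Dll1+ percentile or the strongest member of a gene with many members, and that held a word found more often in members. Capitals mark every match, on either strand, to TGTTTAC or TGTTTGC (FOX), ACAATGG or ACAAAGG (SOX), TGTGGTT (RUNX), ACATTCC or GCATTCC (TEAD), TGAGTCA (AP-1) and TTGGCA, a single arm of the palindrome that NFI factors bind, called the NFI word here. The member near BC052040 (chr2:115488581-115488681) held an NFI and a FOX word, and that near Fut9 (chr4:26000541-26000641) a FOX word and 2 NFI words. Those near Mbnl1 (chr3:60371791-60371891), Olfr726 (chr14:50068487-50068587) and Fbxl7 (chr15:26648436-26648536) held a TEAD word, and the one near Kcnd2 (chr6:21201676-21201776) a SOX word. At the Klhl13 member (chrX:22623130-22623230) a RUNX word preceded a TEAD word. The members near Efnb2 (chr8:8577014-8577114) and Lrrtm1 (chr6:77475438-77475538) joined an NFI word to a FOX word and to SOX words.
BC052040: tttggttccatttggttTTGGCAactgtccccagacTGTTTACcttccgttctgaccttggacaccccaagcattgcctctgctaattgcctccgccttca
Fut9: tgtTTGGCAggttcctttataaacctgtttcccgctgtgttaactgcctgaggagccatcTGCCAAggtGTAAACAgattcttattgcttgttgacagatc
Mbnl1: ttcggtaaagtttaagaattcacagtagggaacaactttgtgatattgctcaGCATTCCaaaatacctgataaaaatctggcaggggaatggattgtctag
Olfr726: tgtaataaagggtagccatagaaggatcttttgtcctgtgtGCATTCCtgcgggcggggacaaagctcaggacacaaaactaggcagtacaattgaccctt
Fbxl7: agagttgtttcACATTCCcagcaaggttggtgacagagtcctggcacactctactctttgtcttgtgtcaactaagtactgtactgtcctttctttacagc
Kcnd2: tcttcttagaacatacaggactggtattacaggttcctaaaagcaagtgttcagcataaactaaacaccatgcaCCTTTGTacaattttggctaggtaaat
Klhl13: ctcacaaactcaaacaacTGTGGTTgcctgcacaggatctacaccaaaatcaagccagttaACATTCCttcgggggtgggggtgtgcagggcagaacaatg
Efnb2: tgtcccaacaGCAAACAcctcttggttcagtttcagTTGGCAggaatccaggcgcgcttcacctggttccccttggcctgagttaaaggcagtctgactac
Lrrtm1: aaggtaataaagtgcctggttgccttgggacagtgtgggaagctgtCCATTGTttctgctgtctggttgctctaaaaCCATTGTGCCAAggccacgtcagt

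The values that chose the members are given as a description only. Median fold enrichment, the reads at a summit over the local background, was 8.65 in Dll1+ cells (quartiles 6.97 and 11.1) and 4.88 in Dll1− cells (3.85 and 6.34) for members, against 5.07 and 8.42 for the opposite group. Members were mid-ranking regions, at a median percentile of 57.2 for Dll1+ cells and 24.5 for Dll1− cells. Of the members, 243 (3.28%) lay in the strongest 10% of shared regions in Dll1+ cells and 1441 (19.4%) in the weakest 10% in Dll1− cells. A difference between 20 and 30 was held by 4324 members (58.3%), one of 60 or more by 118 (1.59%). The members just inside the threshold lay near Homer2 and Bcar3, both with a difference of 20.0005, and the regions just outside near Nr1h4 and Nmur2, both with 19.9973. Fold enrichment was 7.95 and 5.56 at the Bcar3 region and 10.98 and 7.68 at the Nmur2 region in Dll1+ and Dll1− cells, so the threshold cuts through a continuum.

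**Figure D1:**
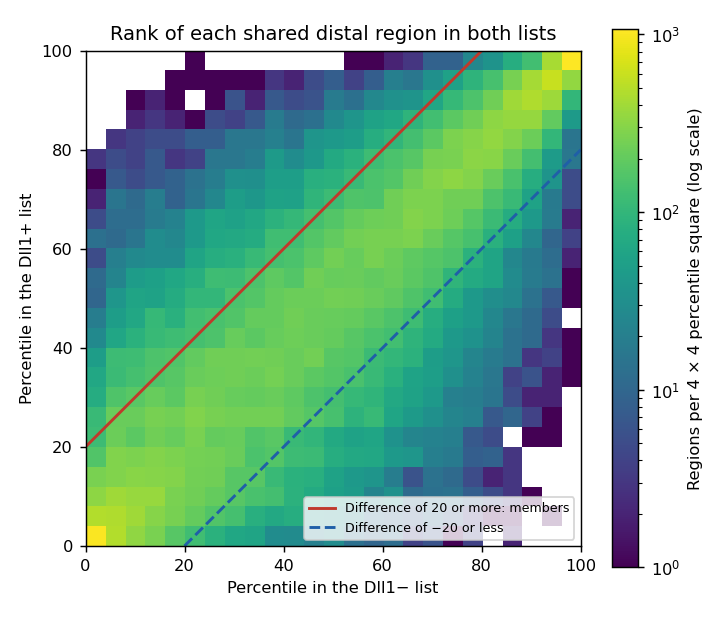
Percentile of each of the 64913 shared distal regions in the Dll1− list (x axis) and the Dll1+ list (y axis), as the number of regions in squares of 4 by 4 percentiles on a log color scale. The 7414 members lie on or above the solid red line and the 6939 regions of the opposite group on or below the dashed blue line, and the density falls off smoothly across both lines.

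Read depth bears on these ranks. The background recovered from the deposited values stood at 3.74 reads genome-wide for Dll1+ cells and at 7.20 for Dll1− cells, 1.93 times as deep. Members rested on a median of 48 Dll1+ reads and 44 Dll1− reads. With Poisson 95% intervals on those reads, the Dll1+ fold enrichment lay clear of the Dll1− fold enrichment in 3215 members (43.4%), where 5.84% of all shared distal regions did so. The rule used the same contrast, so nothing is read from that count. Most members were single peaks called at the same place: 93.5% had their strongest Dll1+ and Dll1− summits within 100 bp, with a median gap of 16 bp, and 63.9% had 1 summit in each list. The local background stood at its genome-wide value in 62.6% of members for Dll1− cells and 42.4% for Dll1+ cells, against 36.1% and 54.4% of the opposite group, and its part in the ranks was not tested.

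The sorted populations were checked against marker genes. A region lay over the TSS of all 5 epithelial markers (Krt8, Krt18, Epcam, Cdh1 and Elf5) in both lists, with fold enrichment from 6.15 to 15.2 in Dll1+ cells and 6.39 to 16.2 in Dll1− cells. Of the immune markers, Csf1r had a region over its TSS in Dll1− cells only (fold 8.53), and Ptprc and Cd3e had none in either list. Among 3 endothelial markers Kdr had a region in both lists (7.39 and 8.25), whereas Pecam1 and Cdh5 had none. Fibroblast Pdgfra had one in both (7.74 and 9.12) and Pdgfrb in Dll1− cells only (4.88). The part of other cell types in the members was not tested.

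The AP-1 word separated members from the opposite group more than any other consensus searched. Within 100 bp of the Dll1+ summit, TGAGTCA was present in 358 of 7414 members (4.83%, 95% interval 4.36 to 5.34). It was present in 2653 of 6939 regions ranked higher in Dll1− cells (38.2%, 37.1 to 39.4) and in 15.5% of the other shared distal regions, and in 16.7% of all shared distal regions. The share in members was 0.126 times that of the opposite group (0.114 to 0.140) and 0.311 times that of the other regions (0.280 to 0.344). Where AP-1 words did occur in members, 28.96% of matches lay within 20 bp of the summit, against 34.0% in the opposite group.

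The AP-1 share followed the percentile difference along its whole range, not only at the threshold. It was 54.7% (659 of 1204) below a difference of −40, 19.3% between −10 and 0, 11.9% between 0 and 10, and 7.06% between 10 and 20. Among members it was 5.43% at differences of 20 to 30, 3.84% at 30 to 40 and 4.22% (47 of 1113) above 40 (3.19 to 5.57). The interval at 20 to 30 (4.798 to 6.15) lay just above that at 30 to 40 (3.08 to 4.785). The gap between members and the opposite group was present in every bin of base composition and strength examined. In windows of under 40% GC the shares were 7.51% and 37.8%, and in windows of 55% GC or more they were 2.54% and 28.0%. For regions with a mean percentile under 20 they were 3.28% and 27.3%, and at 60 to 80 they were 7.04% and 49.4%.

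Words of FOX, SOX, RUNX and TEAD factors were more frequent in members than in both other groups over all base compositions. A FOX word was present in 869 members (11.7%, 11.0 to 12.5), against 7.26% of the opposite group and 8.75% of the other regions, a ratio of 1.61 to the opposite group (1.45 to 1.79). A SOX word was present in 1100 members (14.8%), against 10.2% and 12.1%, a ratio of 1.46 (1.34 to 1.596). Among the weakest regions, with a mean percentile under 20, the SOX order was the other way, with 10.02% of members, 12.4% of the opposite group and 10.8% of the other regions (ratio 0.810, 0.587 to 1.12). For RUNX the share was 6.89% (511 members, 6.34 to 7.49), against 4.83% and 5.45%, a ratio of 1.43 (1.25 to 1.63). TEAD words were found in 875 members (11.8%), against 8.72% and 9.502%, a ratio of 1.35 (1.23 to 1.49). Beyond 250 kb from a TSS, 11.4% of members and 11.8% of the opposite group held a TEAD word (ratio 0.966, 0.682 to 1.37). The gaps of FOX, SOX, RUNX and TEAD words were far smaller than that of AP-1. Over all shared distal regions the shares were 8.93% for FOX, 12.2% for SOX, 5.54% for RUNX and 9.68% for TEAD.

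The NFI word was chosen after a count of all 8192 words of 7 letters, strands joined, had been seen, and its values are a description. The words with the largest excess in members over the opposite group were AAACAAA (14.5% against 7.70%), CTTGGCA (13.5% against 7.45%), CTGCCAA (12.8% against 6.90%) and AACAAAG (11.2% against 6.08%). CTTGGCA and CTGCCAA carry the NFI word on opposite strands. TTGGCA itself was present in 23.1% of all shared distal regions. It was present in 2187 members (29.5%, 28.5 to 30.5), 17.6% of the opposite group and 22.9% of the other regions, a ratio of 1.68 to the opposite group (1.58 to 1.79). Its share climbed from 16.6% below a difference of −40 to 34.1% above 40. The full NFI palindrome was too rare to compare, with 5 members and 2 regions of the opposite group. At the other end of the count the 7 words with the largest deficit in members all overlapped TGAGTCA, and the related words TGACTAA (2.01% against 9.06%) and TGAATCA (2.44% against 8.57%) were also fewer.

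Members were richer in A and T, and these words were compared within bins of base composition for that reason. Median GC content of the 201-base window was 47.3% in members (quartiles 43.3 and 51.7) and 49.8% in both other groups, 36.3% of members lay under 45% GC against 21.6% of the opposite group, and 15.9% of members against 10.7% held no CpG. Between 45 and 50% GC, members and the opposite group held FOX words in 12.4% and 8.54%, SOX words in 15.8% and 11.3%, RUNX words in 7.99% and 5.94%, TEAD words in 13.3% and 9.29%, and the NFI word in 31.1% and 18.1%. Under 40% GC the FOX shares were 9.93% and 11.2%, with a ratio of 0.886 (0.618 to 1.27), so no FOX excess over the opposite group was detectable there. Against the other regions (12.5%) the FOX order turned in that bin, with a ratio of 0.794 (0.636 to 0.991), and RUNX words were present in 6.12% of members and 6.43% of the other regions. The ratios in that bin also had intervals that included 1 for TEAD (1.04, 0.699 to 1.56), SOX (1.18, 0.895 to 1.56) and RUNX (1.596, 0.882 to 2.89), and that of the NFI word was 1.31 (1.02 to 1.69). Among regions without the AP-1 word, ratios to the opposite group were 1.72 for FOX (1.51 to 1.95), 1.53 for SOX (1.37 to 1.70), 1.43 for RUNX (1.22 to 1.67), 1.29 for TEAD (1.15 to 1.44) and 1.59 for the NFI word (1.48 to 1.71).

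**Figure D2:**
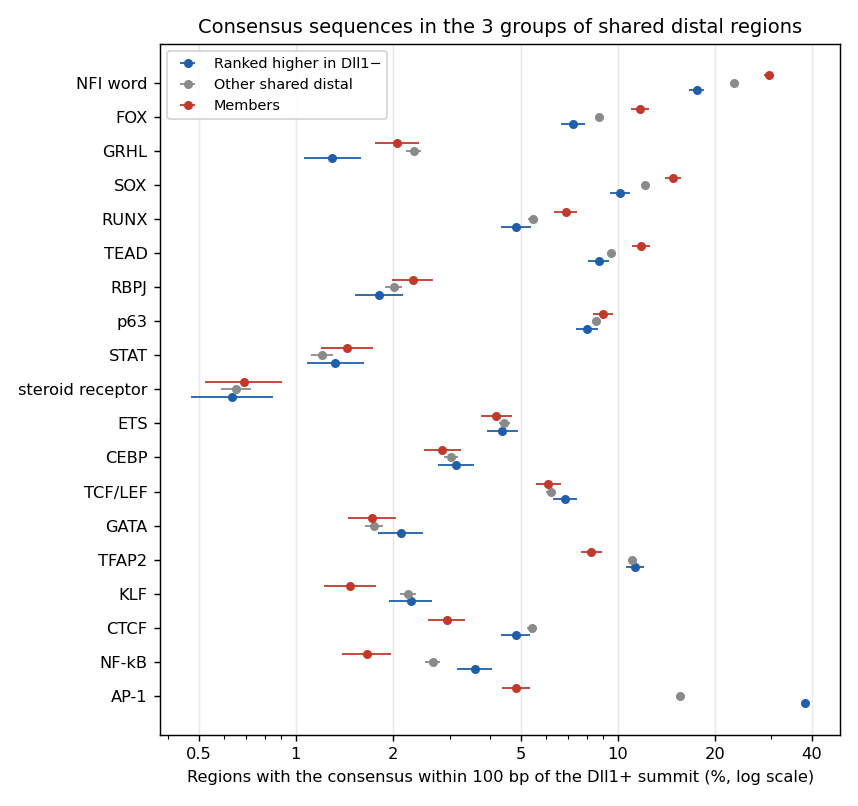
Share of regions with each consensus within 100 bp of the Dll1+ summit (x axis, percent, log scale) in members (red), other shared distal regions (gray) and regions ranked higher in Dll1− cells (blue), with Wilson 95% intervals, ordered by the ratio of members to the opposite group. AP-1 stands apart at the bottom (4.83% against 38.2%), and the NFI word, FOX, SOX, RUNX and TEAD are higher in members.

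NF-kB, the pathway on which the study centers, and Notch were looked at through the words of their factors. The NF-kB consensus was present in 123 members (1.66%, 1.39 to 1.98), against 3.59% of the opposite group (3.18 to 4.05) and 2.66% of the other regions, a ratio of 0.462 (0.373 to 0.572). Members held fewer in each bin from 45% GC upward (1.42% against 2.92% between 45 and 50% GC). Between 40 and 45% GC the ratio was 0.637 (0.338 to 1.197), and under 40% GC the shares were 1.27% and 0.295%. TGTGGGAA or CGTGGGAA, the word of the Notch effector RBPJ, was present in 171 members (2.31%, 1.99 to 2.67), 1.82% of the opposite group (1.53 to 2.16) and 2.01% of the other regions, with a ratio of 1.27 to the opposite group (1.01 to 1.595) and 1.15 to the other regions (0.977 to 1.35). Within every bin of GC content the interval of the RBPJ ratio to the opposite group included 1 (1.23, 0.838 to 1.81, between 45 and 50% GC). Beyond 250 kb from a TSS that ratio was 0.805 (0.295 to 2.20). In the neighboring pairs described below, 13 members and 16 partners held the RBPJ word. KLF (GGGTGTGG, 1.47% against 2.28%) and TFAP2 (GCCNNNGGC, 8.28% against 11.3%) words were fewer in members over all base compositions. Within bins of GC content the interval of the ratio included 1 in every bin for KLF (0.840, 0.512 to 1.38, between 45 and 50% GC) and for TFAP2 in all bins but that between 50 and 55% GC (0.804, 0.670 to 0.965). Over all base compositions the interval of the ratio to the opposite group included 1 for ETS, GATA, CEBP, STAT, TCF/LEF and the steroid receptor consensus. In single bins it lay below 1 for GATA between 40 and 45% GC (0.495, 0.304 to 0.807), for CEBP under 40% GC (0.559, 0.351 to 0.891) and for TCF/LEF under 40% GC (0.658, 0.463 to 0.936) and between 50 and 55% GC (0.620, 0.465 to 0.827). For p63, the basal epithelial regulator, the shares were 8.98% and 8.03%, with ratios of 1.12 (1.005 to 1.25) to the opposite group and 1.05 (0.970 to 1.13) to the other regions. In windows of 55% GC or more the p63 order turned, with 5.43% of members, 7.64% of the opposite group (ratio 0.711, 0.508 to 0.995) and 7.63% of the other regions (0.712, 0.535 to 0.948). The GRHL word (AACCGGTT or AACAGGTT) was present in 2.06% of members, 1.30% of the opposite group and 2.32% of the other regions, a ratio of 1.59 (1.23 to 2.06) to the first and 0.890 (0.753 to 1.05) to the second. At 55% GC or more its ratio to the opposite group was 0.749 (0.282 to 1.99). Of all shared distal regions, 2.65% held the NF-kB consensus, 2.02% RBPJ, 2.15% KLF, 10.8% TFAP2, 8.56% p63, 2.18% GRHL and 0.655% the steroid receptor consensus. ETS words (CCGGAAGT or CAGGAAGT) were held by 4.41%, GATA words (AGATAAG or TGATAAG) by 1.78%, CEBP words (TTGCGCAA, TTGCGTAA, TTGCACAA or TTGCATAA) by 3.02%, STAT (TTCCNGGAA) by 1.24% and TCF/LEF (CTTTGAA or CTTTGAT) by 6.26%. A word that is absent from the window says nothing of its factor.

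**Figure D3:**
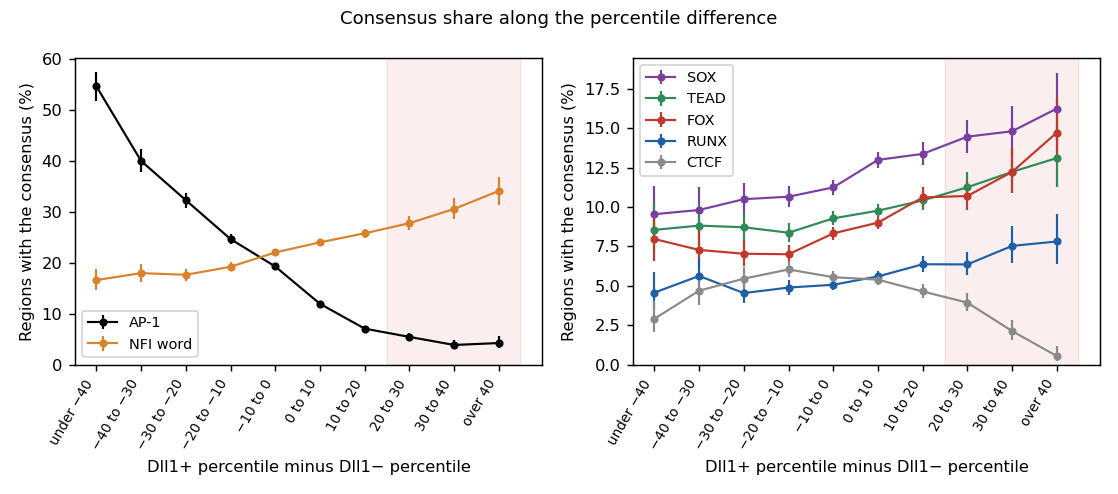
Share of regions with a consensus (y axis, percent) in 10 bins of the Dll1+ percentile minus the Dll1− percentile (x axis), with Wilson 95% intervals and the bins of the members shaded. AP-1 falls from 54.7% to 4.22% from left to right, the NFI word climbs from 16.6% to 34.1%, SOX, TEAD, FOX and RUNX climb more gently, and CTCF ends at 0.539%.

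Members that lay next to a region of the opposite group allowed a comparison within a locus. In 489 cases a member and a region ranked higher in Dll1− cells followed each other along the chromosome within 5 kb, at a median distance of 2360 bp. Median GC content was 48.8% on the member side and 50.2% on the other. The AP-1 word was present in 22 members of these pairs (4.50%, 2.99 to 6.72) and in 195 of the partners (39.9%, 35.6 to 44.3), and in 186 pairs the partner alone held it, against 13 pairs in which the member alone did. The NFI word was present in 140 members (28.6%, 24.8 to 32.8) and 89 partners (18.2%, 15.03 to 21.9), and a FOX word in 55 (11.2%) and 30 (6.13%). The ratio of the AP-1 shares within these pairs was 0.113, against 0.126 over all members and the whole opposite group.

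The pair shown here, with the largest gap between its differences (41.2 and −72.4 percentile points) among those whose sequence was read, lay near Itprid2. Its member had a fold enrichment of 8.23 in Dll1+ cells and 3.87 in Dll1− cells, and its partner, 2969 bp away, 3.66 and 12.8. The member (chr2:79552591-79552691) held the NFI word, and the partner (chr2:79555572-79555672) an AP-1 and a SOX word, again as 101 bases of the plus strand of GRCm38 with matches in capitals.
Itprid2 member: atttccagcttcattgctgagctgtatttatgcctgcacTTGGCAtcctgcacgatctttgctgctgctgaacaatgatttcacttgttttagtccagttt
Itprid2 partner: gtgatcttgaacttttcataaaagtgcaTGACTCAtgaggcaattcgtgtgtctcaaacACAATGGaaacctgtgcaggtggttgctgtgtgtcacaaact

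The make-up of a member's neighborhood changed with range. Of neighboring shared distal regions within 5 kb of a member, 17.5% (16.1 to 18.9) belonged to the opposite group, where 10.1% of all neighbors at that range did, and 7.87% were members, where 8.35% of all neighbors were. Between 5 and 20 kb, 16.0% of a member's neighbors were members themselves (15.1 to 17.0) and 8.71% were of the opposite group, against 11.2% and 10.4% of all neighbors at that range. Beyond 100 kb, 20.9% were members, against 16.8% of all neighbors.

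Members lay farther from genes than other shared distal regions. The median distance to the nearest protein-coding TSS was 40.8 kb for members, 29.6 kb for the opposite group and 28.8 kb for the other regions. Of the members, 3316 (44.7%, 43.6 to 45.9) lay over 50 kb from a TSS, against 34.5% of the opposite group (33.4 to 35.6) and 34.8% of the other regions. Of shared distal regions between 1 and 5 kb from a TSS 5.68% were members, of those between 10 and 25 kb 11.1%, between 100 and 250 kb 14.2%, and beyond 250 kb 19.8% (18.6 to 21.1). The share of the opposite group stayed between 8.83% and 11.8% over the same bins. Without regions that held the AP-1 word the member share still ran from 6.45% to 22.4%. Base composition moved with distance, with a median GC content of 52.2% between 1 and 5 kb and 45.3% beyond 250 kb, and its part was not tested.

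By annotation, members resembled the other groups. Introns held 54.5% of members, 53.4% of the opposite group and 54.2% of the other regions, and intergenic sequence 40.2%, 41.1% and 39.4%. Coding exons held 2.00% of members and untranslated regions 1.67%. The nearest TSS lay downstream of 41.9% of members and 43.3% of the opposite group. Repeat-masked bases made up a median of 3.98% of the window in members and 0% in the other groups, and 3.08% of members against 2.22% of the opposite group were over 50% repeat-masked. Median width was 533 bp in members, 468 bp in the opposite group and 532 bp in the other regions.

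Chromosomes differed, and X stood highest. On X, 239 of 1451 shared distal regions were members (16.5%, 14.7 to 18.5), against 11.3% on the autosomes (11.1 to 11.6), and 8.61% were of the opposite group. Shares on single autosomes ran from 8.33% on chromosome 11 (7.51 to 9.23) to 13.8% (12.5 to 15.3). The excess on X was present at each distance, with 16.9% against 11.0% between 10 and 25 kb from a TSS and 19.5% against 12.1% between 50 and 100 kb, and with overlapping intervals under 10 kb and beyond 100 kb. The AP-1 word was present in 17.1% of the shared distal regions on X and in 15.9% of those on chromosome 11. The median log2 ratio of depth-scaled Dll1+ reads to Dll1− reads over all shared distal regions was 0.37 on X and 0.11 on chromosome 11. Chromosome copy number was not measured and cannot be told apart from accessibility in these lists.

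**Figure D4:**
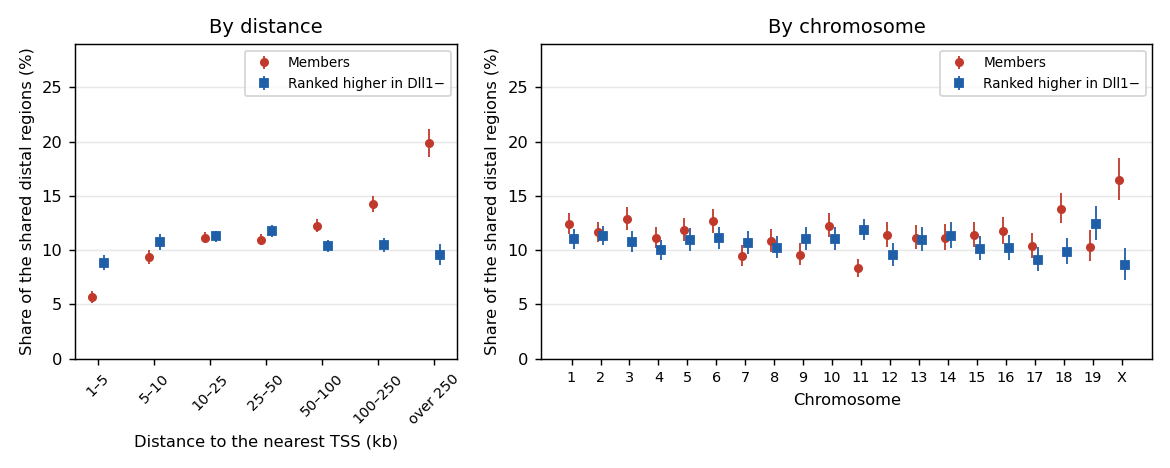
Share of the shared distal regions (y axis, percent) that were members (red circles) or ranked higher in Dll1− cells (blue squares), by distance to the nearest TSS in kb (left) and by chromosome (right), with Wilson 95% intervals. The member share runs from 5.68% next to genes to 19.8% beyond 250 kb and stands highest on X (16.5%).

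Single members with the largest differences were weak peaks of Dll1− cells. The largest, 78.2 percentile points, lay in an intron of Pcdh9, which encodes a protocadherin adhesion protein, 649 kb from its TSS (chr14:93239457-93240028). Its fold enrichment was 12.7 in Dll1+ cells (59 reads, Poisson interval 9.69 to 16.3) and 2.44 in Dll1− cells (19 reads, 1.52 to 3.74). The next lay near BC052040 (fold 15.8 and 3.78), 60.5 kb from the TSS of Iars2 (16.3 and 3.90), in an intron of the actin regulator Fmnl2 (13.0 and 3.05) and near the splicing factor gene Mbnl1 (13.5 and 3.29). For the 10 members with the largest difference, Dll1+ fold enrichment ran from 12.3 to 20.998 and Dll1− fold enrichment from 2.44 to 4.76. No interval of a member overlapped between the lists, where 5.84% of all shared distal regions had Dll1+ clear above Dll1−. The 10 were picked by their difference, so nothing is read from this separation. They lay near 10 different genes on 7 chromosomes.

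Those with the highest Dll1+ percentile were strong in both groups. The first lay in an intron of the receptor phosphatase gene Ptpro (fold 22.9 in Dll1+ cells, 18.9 to 27.6, and 11.8 in Dll1− cells, 9.61 to 14.4). The second and the fourth lay on X, 643 kb from Klhl13 (22.5 and 10.4) and 672 kb from Smarca1 (22.01 and 10.6). The third lay near B230118H07Rik (22.2 and 11.95) and the fifth in an intron of Adgrl3 (21.9 and 12.2). Of these 5, 4 lay over 400 kb from a TSS.

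The members were spread over 4470 of the 13383 genes that had a shared distal region, assigning each region to the nearest protein-coding TSS, which need not be the gene it acts on. Of these genes, 2868 had 1 member and 14 had 9 or more. Lrrtm1, the gene with the highest share among 7 genes with 8 members, was described with them. The latrophilin genes Adgrl3 and Adgrl2, which encode adhesion G protein-coupled receptors, had 14 of 30 and 13 of 73 shared distal regions as members. The leucine-rich repeat genes Lrrc4 and Lrrtm1 had 12 of 30 and 8 of 10. The ephrin ligand genes Efna5 and Efnb2, whose products guide cell sorting through Eph receptors, had 11 of 64 and 10 of 31. Ank3, for the membrane adaptor ankyrin-G, had 9 of 36. No enrichment by function was tested, and genes with large neighborhoods have more regions to count.

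Regulators of transcription and protein turnover made up the rest. The coregulator gene Cited2 had 11 of 60, the mineralocorticoid receptor gene Nr3c2 10 of 25, the forkhead gene Foxp1 10 of 42, Sox4 9 of 46 and the zinc finger gene Zfp608 9 of 41. The F-box gene Fbxl7 had 10 of 17 and Sel1l, of endoplasmic reticulum protein degradation, 10 of 36. Regions of the opposite group were fewer at each of these genes, from 0 at Adgrl3 and Lrrtm1 to 7 at Cited2. The genes were picked for their number of members, so nothing is read from that order. Of all shared distal regions, 11.4% were members. The median difference over a gene's shared distal regions ran from −0.689 at Cited2 to 29.7 at Lrrtm1. At Adgrl3 the members ran from fold 5.596 to 21.9 in Dll1+ cells and from 2.68 to 12.2 in Dll1− cells, at distances of 7.74 to 882 kb, and 7 of the 14 held the NFI word. At Foxp1 the range was 4.85 to 13.1 and 1.95 to 7.72, 6 of the 10 members lay within 50 kb of the TSS, and 7 held the NFI word. At Sel1l every member lay between 444 and 1365 kb from the TSS. At Sox4 the nearest member was 70.9 kb away.

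**Figure D5:**
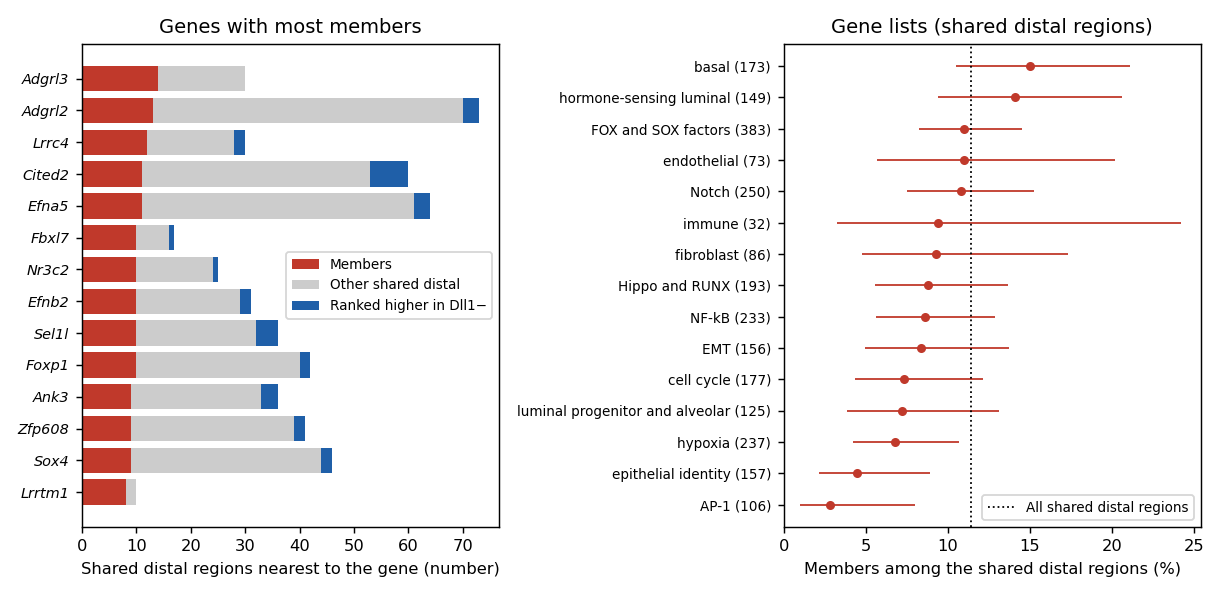
Left, 14 genes with most members, as the number of shared distal regions nearest to each gene that were members (red), other (gray) or ranked higher in Dll1− cells (blue). Right, the share of members (percent, Wilson 95% interval) among the shared distal regions of 15 gene lists, with their number in parentheses and a dotted line at 11.4%; the lists of AP-1 subunits (2.83%) and epithelial identity (4.46%) lie lowest.

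Gene lists were read against the 11.4% of all shared distal regions. The list of AP-1 subunit genes had the lowest share, with 3 of 106 regions (2.83%, 0.967 to 7.99), each at a different gene. Epithelial identity genes had 7 of 157 (4.46%, 2.18 to 8.92), 3 of them at Grhl2, and hypoxia genes 16 of 237 (6.75%, 4.20 to 10.7), with 5 at Egln3, which encodes an oxygen-sensing prolyl hydroxylase, and 3 at Pfkfb3, a regulator of glycolysis. Within 50 kb of a TSS, where 9.85% of all shared distal regions were members, epithelial identity genes had 4.00% and hypoxia genes 4.61%. For the other 12 lists the interval included 11.4%.

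The intervals of the lists of mammary cell types all included the share of all regions. Basal genes had 26 of 173 regions as members (15.03%, 10.5 to 21.1), with 7 of 24 at the growth factor receptor gene Egfr, 5 of 25 at its family's ligand gene Nrg1, and 4 of 19 at the integrin gene Itga6. Hormone-sensing luminal genes had 21 of 149 (14.1%, 9.41 to 20.6), with 7 of 51 at Gata3, all over 200 kb from its TSS, where 8 regions were of the opposite group. Luminal progenitor and alveolar genes had 9 of 125 (7.20%, 3.83 to 13.1), 3 of them at the integrin gene Itgb3.

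Notch genes had 27 of 250 regions as members (10.8%, 7.53 to 15.3) and 29 of the opposite group. By role, the ligand gene Jag1 had 7 of 23 members, between 13.4 and 565 kb from its TSS, with Dll1+ fold enrichment of 6.54 to 15.8 and Dll1− fold enrichment of 3.26 to 8.90. The receptor gene Notch1 had 3 of 13, the coactivator gene Maml2 3 of 22, and the target genes Hey1 and Hey2 4 of 17 and 3 of 4. Dll1 itself had 1 of 15, an intergenic region 73.8 kb from its TSS (chr17:15301818-15302473) with fold enrichment of 5.20 and 2.95 (77 and 78 reads), and 1 of the opposite group.

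NF-kB genes had 20 of 233 (8.58%, 5.63 to 12.9), with 3 each at Map3k7 and Traf6, kinase and adaptor of the upstream signal. Nfkb1, for the p50 subunit, had 1 of 21, an intergenic region 7.25 kb upstream of its TSS (chr3:135698477-135699120), with fold enrichment of 6.51 (30 reads) and 3.17 (25 reads), and 2 regions of the opposite group. The whole list had 24 regions of the opposite group. Hippo and RUNX genes had 17 of 193 (8.81%), with 6 of 49 at Runx1 and 4 of 23 at the TEAD cofactor gene Vgll4, with 5 regions of the opposite group at each. FOX and SOX factor genes had 42 of 383 (11.0%, 8.22 to 14.5), with 4 of 36 at Sox5 and 3 each at Sox9, Foxn3 and Sox13 beside those of Foxp1 and Sox4. Regions of the opposite group outnumbered members at Sox5 (6) and Sox9 (6). Genes of epithelial to mesenchymal transition had 13 of 156 (8.33%), 3 of them at Tgfbr2, which had 6 regions of the opposite group, and cell cycle genes 13 of 177 (7.34%). The marker lists of other cell types had 3 of 32 (immune), 8 of 73 (endothelial, 3 at Emcn) and 8 of 86 regions (fibroblast, 4 at Dcn).

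The genes that the study labels had few shared distal regions or members to count, and their shares are not read against the 11.4% of all regions. Hepacam2 had 1 of 2 shared distal regions, in an intron 1.94 kb from its TSS (chr6:3492350-3492964, fold 8.32 and 3.14, 74 and 27 reads), with a FOX word. Npy, for neuropeptide Y, had 1 of 9, 209 kb upstream, with one of the larger differences (68.7 percentile points, fold 14.6 and 4.27), and 2 regions of the opposite group. Ntrk3, for a neurotrophin receptor, had 3 of 20, with differences from 20.1 to 23.1, and Bglap2 0 of 1. Of the keratin genes, the only shared distal region nearest to basal Krt5 was a member (9.32 kb upstream, fold 11.97 and 7.48), Krt14 had 0 of 2 and luminal Krt8 0 of 8. Luminal Krt7, named after its values were seen, also had 1 of 1, with a difference of 49.3 percentile points.

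Members were also counted at loci with many regions called in Dll1+ cells alone, beside a share of 11.4% over all shared distal regions. Dach1, for a transcriptional cofactor, had 6 of 20, the largest difference being 74.2 percentile points (fold 18.2 and 4.51), with a SOX and the NFI word. Gpc6, for a glypican, had 5 of 24, up to 64.2 points (13.6 and 4.39). Mdga2, for an adhesion protein of synapses, had 4 of 5, Dab2, an endocytic adaptor, 4 of 13, and Cdk5rap2, of the centrosome, 2 of 24 (8.33%). Regions of the opposite group numbered 0 at Dach1 and Mdga2, 1 at Dab2 and 2 at Gpc6 and Cdk5rap2. The median difference over all shared distal regions of a locus ran from −0.554 at Gpc6 to 27.3 at Mdga2. Distal regions called in Dll1+ cells alone numbered 12 at Dach1, 15 at Gpc6, 9 at Mdga2, 12 at Dab2 and 15 at Cdk5rap2, against 3, 6, 3, 2 and 2 called in Dll1− cells alone. Of the genes with most members named above, only Efna5 had more called in Dll1+ cells alone (16 against 8). Adgrl3 (13), Efnb2 (14) and Lrrtm1 (5) had as many of each kind. The others had more called in Dll1− cells alone, such as 31 against 17 at Adgrl2 and 23 against 14 at Foxp1.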

How the data were processed

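Sorted cells were profiled by ATAC-seq. The authors processed the samples of a group in 1 run of the ENCODE pipeline and deposited an optimal peak list per group, so the depth per sample is unknown. Deposited fold enrichment is a ratio of reads at the summit to local background. The deposited −log10 p-value was used to recover reads, taking it as a Poisson tail and the fold as reads plus 1 divided by background plus 1, to a tolerance of 0.05% of the −log10 p-value. The model failed for 0 of 132872 Dll1+ and 1 of 148923 Dll1− rows. Peaks were ranked within their own list, and the pooling of 3 against 4 samples and the unequal depth can move ranks of weak peaks. The submitters' processing notes name GRCm38 (mm10). Peak caller settings were not given in the sources used here.

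Rows were merged in Python 3.11.15 (pandas 2.3.3, scipy 1.17.1), with GENCODE M21 (basic set) for genes and the GRCm38.p6 RefSeq assembly for sequence. Coordinates are 1-based. For 19 consensus sequences, both strands were searched within 100 bp of the strongest Dll1+ summit, and regions were assigned to the nearest protein-coding TSS. Shares carry Wilson 95% intervals, ratios log-normal intervals and reads exact Poisson intervals. Intervals cover counting error only: regions are no replicates, and reads that carry no molecular identifier need not be separate molecules. The steps were tested on simulated data.

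The genes named were those of the 15 with most members, listed genes with at least 3 members, the genes the study labels, its keratins, and 5 loci (Cdk5rap2, Dab2, Gpc6, Dach1, Mdga2). Single regions named were the 10 with the largest difference, the 5 with the highest Dll1+ percentile and 2 on each side of the threshold. The members, gene lists and consensus sequences were chosen with earlier results of these data known. The pairs of neighbors, the 7-letter words and the NFI word were chosen after the data had been seen. A few genes that these rules name are not reported here. The authors' test on reads per region and sample was not analysed here. Alternatives were other thresholds, rankings, distances, windows and overlap rules.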

Additional observations from a re-analysis of the deposited data

How the results depend on the processing

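The number of members stayed between 5443 and 11095 under 8 of 9 alternatives, and the AP-1 ratio of members to the opposite group stayed between 0.0867 and 0.162 under all 12 tried. With a difference of 30 or more there were 3090 members, by construction, with an AP-1 share of 3.98%, an AP-1 ratio of 0.0867, a RUNX share of 7.64% and 49.3% over 50 kb from a TSS. With 15 or more the AP-1 ratio was 0.153 and the share over 50 kb 43.1%. A window of 50 bp gave shares of 3.17% for AP-1 and 3.70% for RUNX, since fewer bases were searched, and an AP-1 ratio of 0.110. The Dll1− summit gave an AP-1 share of 5.52%. Ranking by −log10 p gave an AP-1 share of 4.25% and a ratio of 0.109. Peaks at or above the median fold in both lists gave 5.91%, 0.162 and 45.9% over 50 kb, and regions with 1 summit in each list 43.2% over 50 kb. Beyond these constructions the cause was not tested. Scaling the Dll1− reads to the Dll1+ depth gave 7714 members and an AP-1 ratio of 0.124. Chosen after the data had been seen, neighboring pairs gave an AP-1 ratio of 0.113, and members with fold intervals apart an AP-1 share of 4.17%. No paired analysis was possible because each list pools the samples of its group, and for the same reason no sample could be left out. Depth limits the weak peaks most: members rested on a median of 44 Dll1− reads.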

Other observations

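CTCF, the insulator protein that anchors chromatin loops, was searched among the consensus sequences, and its share was highest in the middle of the percentile difference. The consensus was present in 5.07% of all shared distal regions, 218 members (2.94%, 2.58 to 3.35), 4.81% of the opposite group (4.33 to 5.34) and 5.42% of the other shared distal regions. Along the difference its share was 2.91% below −40, 6.04% between −20 and −10 and 5.39% between 0 and 10. Among members it fell from 3.93% at 20 to 30 to 2.12% at 30 to 40 and 0.539% above 40 (6 of 1113, 0.247 to 1.17). Members held fewer CTCF words than the other shared distal regions in each bin of GC content, with 2.62% against 5.39% between 45 and 50% GC. At like mean strength they also held fewer, with 3.27% against 7.53% for mean percentiles of 40 to 60.

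Matches were placed around the summit in different ways. Of NFI words in members, 26.3% lay within 20 bp of the summit and 12.4% at 80 to 100 bp, against 20.9% and 13.6% in the opposite group. For FOX the shares were 22.2% and 17.0% in members, close to an even spread, and for SOX 24.9% and 14.0%.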
